A study of Rattus norvegicus with 49 samples.

Results

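The acute phase plasma proteins described here are secreted by the liver into the blood and were taken as 10 genes: A2m, Hp, Orm1, Lbp, Crp, Fga, Fgb, Fgg, Cp and Itih4. Their probes are the transcript probes whose RefSeq accession maps to one of these symbols, which gave 12 probes of the 30367 on the array, with a pair of probes each for A2m and Cp, and 10 genes of the 15154 that the array's probes name. Where a gene had more than 1 probe, the one brighter in the liver channel stands for it. All 10 genes passed the filter on dim probes and are among the 17128 probes tested.

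Livers came from inbred F344 rats of both sexes, aged 7 to 8 weeks at the start of dosing. They received furan, a liver toxicant that forms in heated foods, by gavage on 5 days per week for 90 days. The doses were 2 mg/kg, 0.5 mg/kg, 0.12 mg/kg and 0.03 mg/kg in Mazola corn oil, and controls (0 mg/kg) received the oil alone. Arrays of 5 rats per dose and sex were available, 1 per rat, except 4 in males at 0.03 mg/kg. The paper used 5 rats of each dose and sex and states that 1 male array was eliminated for quality. RNA was from whole liver, so that fewer cells of a type and less RNA per cell cannot be told apart. Each array set liver RNA (Cy5) against a universal rat reference RNA (Cy3) with no dye swap, and the log2 ratio of the 2 channels after normexp background correction and loess normalisation is the level used throughout. A ratio is compared between arrays for the same probe, never between probes.

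In the acute phase response, cytokines of the interleukin 6 and interleukin 1 families act on hepatocytes through the transcription factors Stat3, NF-kappaB and C/EBP, and the liver makes more of some plasma proteins (positive acute phase proteins) and less of others, such as albumin and transthyretin (negative ones). In rats, A2m and Orm1 are strong responders to inflammation, the fibrinogen chains and Hp are moderate ones, and Crp is made at a high level also without it.

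The arrays came from 8 slides, and the slide moved most of these genes more than furan did. Slide alone accounted for 69.7 to 95.2% of the variance in log2 ratio of the 9 genes other than A2m, against a median of 56.3% over all tested probes, and for 23.9% of that of A2m. The group of dose and sex alone accounted for 71.2% of the variance of A2m and for 15.1 to 29.6% of that of the other 9. All comparisons therefore carry the slide as a block, and a slide-adjusted ratio is the log2 ratio with the fitted slide effect removed. Dose and slide were not balanced. Controls lay on slides 1 to 4, 7 and 8, and rats at 2 mg/kg on slides 2, 4, 5, 7 and 8. Slides 5 and 6 held no controls. Adjusted values there rest on the fitted slide effect and not on controls of the same slide. No liver spot was saturated on any array, these bright genes included, and 12 reference spots were saturated on 2 arrays. On 1 array, that of male 26 at 0.03 mg/kg, 5.06% of liver spots were well above background, against 37.9 to 71.1% on the others. It was left out of the fit, and its as-measured log2 ratios were 3.02 for Fga, where the other males at this dose had 6.50 to 8.20, and -0.10 for A2m, where they had -2.20 to -1.74.

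**Figure D1:**
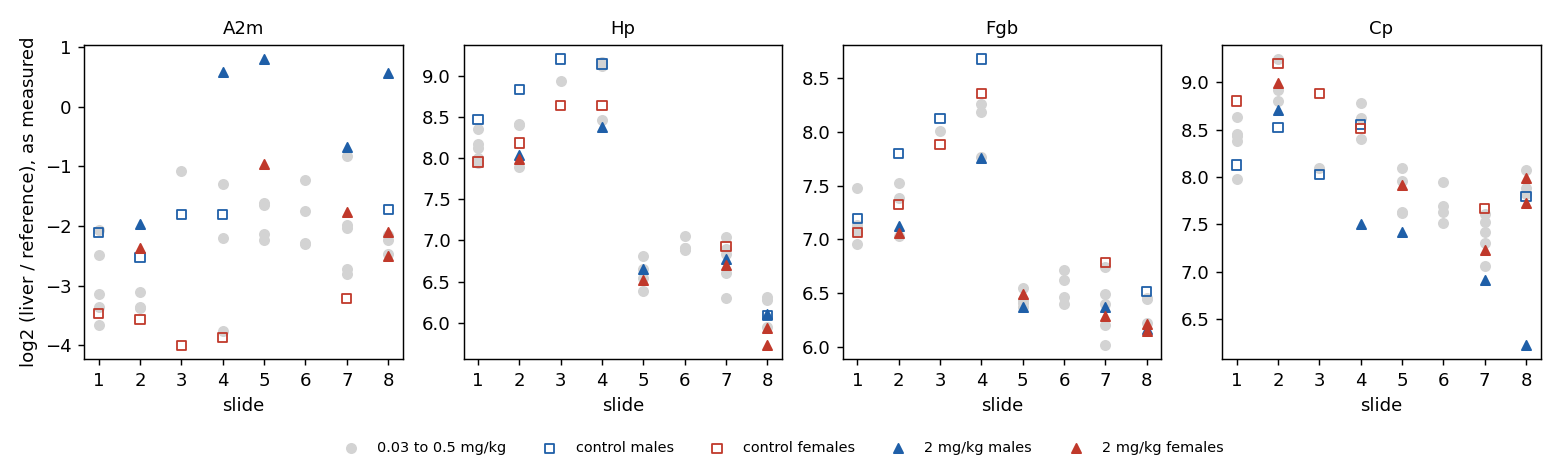
Log2 ratio of liver over reference as measured (vertical axis) by slide (horizontal axis) for A2m, Hp, Fgb and Cp, 1 point per array of the 48 in the fit. Open squares are controls, triangles are 2 mg/kg and grey points the doses between. Hp lies between 8.37 and 9.20 on slides 3 and 4 and between 5.73 and 7.06 on slides 5 to 8 whatever the dose, while A2m at 2 mg/kg lies above the controls of the same sex on every slide that holds both.

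The regulatory sequences of 5 members are shown because their levels varied together across the arrays: those of the 3 fibrinogen chains, of Itih4 and of Orm1. Hp varied with them as well but is not shown, as no sequence was available for it. RefSeq promoter windows of the GRCr8 assembly were available for 7 of the 10 genes (Orm1, Crp, Fga, Fgb, Fgg, Cp and Itih4), and the 250 bases before the annotated start were searched on both strands. The letters searched were TTCNNNGAA, the core that Stat factors bind, CTGGGAA, the type II interleukin 6 element, and TTGCNNCAA, a C/EBP core. In the sequences, capitals mark the matches, and each reads 5' to 3' up to the base before the start.
Fga (chr2:170671919-170672168, plus strand): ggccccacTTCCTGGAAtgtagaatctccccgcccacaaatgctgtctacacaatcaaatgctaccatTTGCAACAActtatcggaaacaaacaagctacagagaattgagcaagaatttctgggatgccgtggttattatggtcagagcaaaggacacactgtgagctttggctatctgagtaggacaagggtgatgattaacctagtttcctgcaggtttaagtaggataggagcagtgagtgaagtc
Fgb (chr2:170700876-170701125, minus strand): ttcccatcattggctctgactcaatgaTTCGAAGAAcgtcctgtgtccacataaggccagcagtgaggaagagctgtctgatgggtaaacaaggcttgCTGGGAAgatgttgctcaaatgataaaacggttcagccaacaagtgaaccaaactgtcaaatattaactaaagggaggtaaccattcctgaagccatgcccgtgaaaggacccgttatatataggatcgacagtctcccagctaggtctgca
Fgg (chr2:170652833-170653082, plus strand): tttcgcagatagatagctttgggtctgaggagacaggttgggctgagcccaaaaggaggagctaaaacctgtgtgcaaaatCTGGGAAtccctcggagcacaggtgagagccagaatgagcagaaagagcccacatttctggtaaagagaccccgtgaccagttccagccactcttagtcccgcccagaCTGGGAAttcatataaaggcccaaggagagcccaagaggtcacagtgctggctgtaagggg
Itih4 (chr16:6086735-6086984, plus strand): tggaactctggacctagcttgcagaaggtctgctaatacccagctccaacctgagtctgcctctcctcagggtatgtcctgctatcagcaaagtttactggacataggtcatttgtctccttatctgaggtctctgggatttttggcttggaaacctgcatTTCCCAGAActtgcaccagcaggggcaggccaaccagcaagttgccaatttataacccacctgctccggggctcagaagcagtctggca
Orm1 (chr5:81788259-81788508, plus strand): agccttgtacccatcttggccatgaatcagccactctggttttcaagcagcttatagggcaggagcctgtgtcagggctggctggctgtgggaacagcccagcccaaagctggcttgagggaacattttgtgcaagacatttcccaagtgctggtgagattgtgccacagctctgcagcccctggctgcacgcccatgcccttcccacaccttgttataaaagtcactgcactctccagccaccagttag
The Stat core stood in 3 of the 7 members with a window (Fga, Fgb and Itih4) and in 7.67% of all 33469 promoter windows. The CTGGGAA element stood in 3 (Fgb, Fgg and Itih4) and in 9.56% of all windows, with a pair of matches in Fgg at 169 and 61 bases before the start. In Itih4 the match to CTGGGAA, on the opposite strand, lies inside the match to the Stat core, so that these are the same bases. The C/EBP core stood in Fga alone among the 7 and in 1.75% of all windows. Fga has another annotated start a few bases downstream, and its window no longer holds the Stat core. Orm1, shown in lower case throughout, Crp and Cp held none of the 3 in this window. A match is a description of the letters and not a measured binding site.

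A2m, the broad protease inhibitor alpha-2-macroglobulin, was the 1 member that rose with furan, and it rose in both sexes at 2 mg/kg. Slide-adjusted log2 ratios of the 5 males at 2 mg/kg were -1.18, -0.90, 0.20, 0.40 and 0.54, and those of the 5 control males were -1.89, -1.85, -1.79, -1.75 and -1.67. Every male at 2 mg/kg was thus above every control male, and the treated males spread over a far wider range than the controls. The change was 1.60 ± 0.32 on the log2 scale (SE, n = 5 against 5), or 3.04-fold, with an adjusted p of 0.000302 in limma. The change ranked 26 of the 17128 in size. Called here means an adjusted p (Benjamini-Hochberg over all tested probes) of at most 0.05 and a change of at least 1.5-fold. By that rule A2m was the 1 gene of 10 called in males at 2 mg/kg, where 5.22% of all tested probes were called.

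As measured, the males at 2 mg/kg had A2m ratios of -1.96, -0.67, 0.57, 0.58 and 0.81, and the control males -2.53, -2.11, -1.81, -1.80 and -1.72. Here 1 treated male, animal 86 at -1.96, lay among the controls, and the control male on its slide, slide 2, had the lowest control ratio, -2.53. Within the 3 slides that held both a control and a 2 mg/kg male, the difference was 0.57 on slide 2, 2.40 on slide 4 and 2.29 on slide 8. All 3 differences were positive, the one on slide 2 by the least.

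In females, A2m started from a lower level and rose by a like amount in log2 ratio, but from a low signal. Raw liver signal ran from 105.25 to 284 in control females and from 104.75 to 565.25 at 2 mg/kg. In males it ran from 122.75 to 941.25 in controls and from 369 to 5616.75 at 2 mg/kg. The size of the female change is thus less certain. Slide-adjusted ratios at 2 mg/kg were -2.67, -2.26, -2.003, -1.59 and -1.57, against -3.99, -3.92, -3.45, -3.04 and -2.79 in controls. The groups did not overlap. As measured they did not overlap either, with -2.50 to -0.96 at 2 mg/kg and -4.00 to -3.22 in controls. That as-measured gap is confounded with slide, as the groups shared only slides 2 and 7. The other treated females lay on slides 5 and 8, where A2m averaged -1.30 and -1.80 over all arrays of the slide. The other control females lay on slides 1, 3 and 4, where it averaged -2.90, -2.29 and -2.06. The change was 1.42 ± 0.33 (SE, n = 5 against 5), or 2.67-fold, with an adjusted p of 0.0103 in limma, and ranked 8 of the 17128. A2m was again the 1 gene of 10 called, where 1.45% of all tested probes were called. Within slides 2 and 7, which held both groups, the differences were 1.20 and 1.45. The other A2m probe gave 1.28 ± 0.25 in males and 1.09 ± 0.26 in females (adjusted p 0.000280 and 0.0122). Without slides 5 and 6, a setting chosen after the data were seen, the female change was 1.25 with an adjusted p of 0.0588 and lost its call.

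The effect of furan on A2m was not shown to differ between the sexes. The male change minus the female change was 0.18 ± 0.44 (adjusted p 0.848), with a 95% interval of -0.70 to 1.07. None of the 10 genes was called in this comparison, where 1.14% of all probes were. An unadjusted p under 0.05 was reached by 3 of them, Hp, Fga and Itih4, with differences of -0.35, -0.31 and -0.31, where 19.1% of all probes reached it. Between control rats of the 2 sexes, A2m differed about as much as it did with furan. It was higher in control males than in control females by 1.65 ± 0.31 (adjusted p 0.000122 in limma), or 3.13-fold. Every control male was above every control female, although the raw signal in control females was low, 105.25 to 284. A2m was the 1 gene of 10 called here, where 6.59% of all probes were called. Females at 2 mg/kg, with a slide-adjusted mean of -2.02 ± 0.47 (SD, n = 5), came near to the control males at -1.79 ± 0.09, a pair that was not tested. Hp, which binds free haemoglobin, was also higher in control males, by 0.43 ± 0.12 (adjusted p 0.00801), and Cp, the copper-carrying ferroxidase ceruloplasmin, was lower by 0.47 ± 0.16 (adjusted p 0.0271). Both are under 1.5-fold. The other Cp probe gave -0.62 ± 0.18 and was called.

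**Figure D2:**
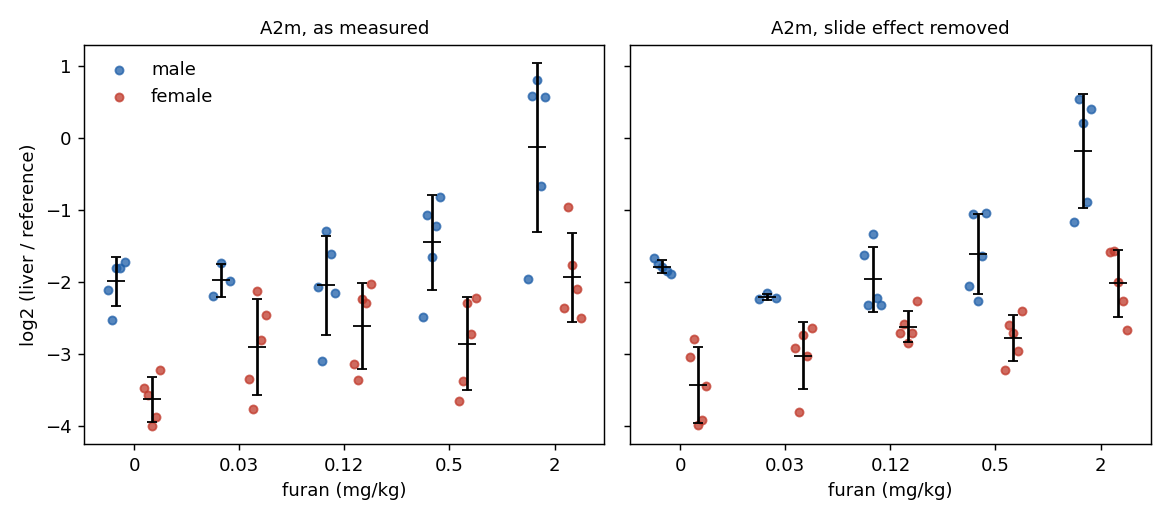
A2m log2 ratio of liver over reference (vertical axis) by furan dose (horizontal axis, evenly spaced groups), as measured on the left and with the slide effect removed on the right. Points are arrays, bars the mean and SD. At 2 mg/kg the slide-adjusted males lie between -1.18 and 0.54 against -1.89 to -1.67 in controls, and the females between -2.67 and -1.57 against -3.99 to -2.79.

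At lower doses no member was called by limma in either sex, and an unadjusted p under 0.05 was reached by 0, 0 and 3 of the 10 in males and by 0, 2 and 2 in females at 0.03, 0.12 and 0.5 mg/kg. Over all probes that share was 4.13%, 6.56% and 11.3% in males and 6.48%, 8.42% and 15.1% in females. The 4 dose comparisons of a sex share that sex's control arrays. In males A2m changed by -0.42 ± 0.38 at 0.03 mg/kg (n = 3 against 5), -0.18 ± 0.31 at 0.12 mg/kg and 0.18 ± 0.32 at 0.5 mg/kg, where slide-adjusted ratios ran from -2.26 to -1.05 with 3 of 5 males above every control and the other pair below. In females the changes were 0.41 ± 0.32, 0.82 ± 0.32 and 0.66 ± 0.32 at 0.03, 0.12 and 0.5 mg/kg, with 2, 4 and 3 of 5 females above every control and adjusted p of 0.854, 0.512 and 0.322. The liver signal of A2m was well above background on 3 of 5 arrays of the females at 0.03 and at 0.12 mg/kg and on all 5 of the control and 2 mg/kg groups of both sexes. At these 3 doses the share of all probes called was 0%, 0.315% and 0.368% in males and 0.0175%, 0.0117% and 0.0292% in females, in order of dose. The other 9 genes changed by -0.31 to 0.28 in males and by -0.30 to 0.18 in females.

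**Figure D3:**
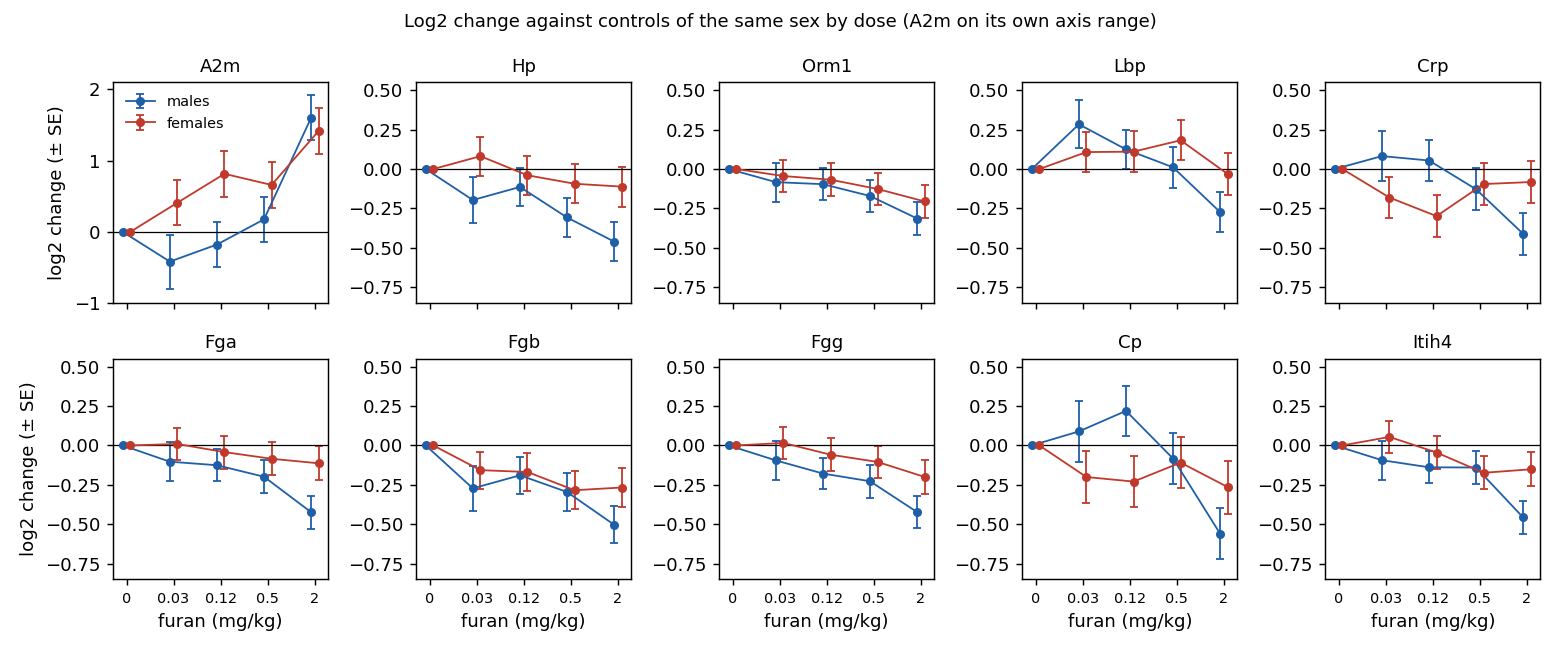
Log2 change against controls of the same sex (vertical axis, ± SE) by furan dose (horizontal axis, evenly spaced) for the 10 genes, males in blue and females in red. A2m has its own axis range. At 2 mg/kg A2m reaches 1.60 in males and 1.42 in females, and the other 9 lie from -0.56 to -0.27 in males and from -0.27 to -0.03 in females.

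The other 9 genes did not rise at 2 mg/kg. In males all 9 had negative changes, from -0.27 to -0.56 with a median of -0.42, where the median over all tested probes was -0.02. None reached 1.5-fold. By the adjusted p alone, with no fold limit, 8 of the 9 were lower, where 11.3% of all tested probes were lower by that rule, and A2m was higher, as were 12.7%. Slide-adjusted groups did not overlap for 6 of them (Orm1, Crp, Fga, Fgb, Fgg and Itih4), where 8.05% of all probes had every treated male below every control. As measured, no member had treated males that were all below the controls.

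How many passed depended on the slide block, the arrays and the scaling. With no slide block 0 of the 9 passed the adjusted p, although all 9 stayed negative and the median of the 10 genes went from -0.42 to -0.83, and with the dim array kept 2 passed, with all 9 negative and a median of -0.43. With the liver channel alone in place of the ratio 3 passed, the median was -0.22 and Hp and Orm1 turned to 0.061 and 0.35. In the same males the hepatocyte markers were lower too: the mean of their 9 tested genes ran from 5.33 to 5.63 in slide-adjusted log2 ratio at 2 mg/kg and from 5.79 to 6.01 in controls, all 9 had negative changes and their median was -0.33. Of the hepatocyte markers, Alb, Apoa1, Ttr, Tf and Ahsg also stand in the list of negative acute phase proteins described below, so these lists are not independent. Bile duct markers were higher, with a mean over 4 genes of -1.73 to -0.88 at 2 mg/kg against -2.34 to -1.80 in controls. Of 7 stellate cell and fibroblast markers 2 were called higher, Col3a1 and Lrat, with a list median of 0.35 and array means of -1.06 to 0.049 against -1.29 to -0.78. Of 3 erythroid markers tested, of 5 listed, 1 was called lower, Hbb, and all 3 were negative with a median of -0.65 and array means of 2.14 to 2.82 against 2.39 to 3.87. Over all tested probes 5.22% were called in males at 2 mg/kg. The part of these markers in the result was not tested.

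The fibrinogen chains, which assemble into the clotting protein, had fitted changes of similar size in males. Fgb, the beta chain, had slide-adjusted ratios of 6.62, 6.77, 6.79, 6.86 and 6.87 in males at 2 mg/kg and 7.07, 7.14, 7.24, 7.44 and 7.54 in control males. The treated males were all lower, and the change was -0.50 ± 0.12 (adjusted p 0.00181 in limma). Fga, the alpha chain, had 6.57, 6.70, 6.74, 6.75 and 6.85 against 6.93, 7.09, 7.15, 7.24 and 7.31, a change of -0.42 ± 0.10 (adjusted p 0.00267). Fgg, the gamma chain, ran from 6.43 to 6.71 against 6.95 to 7.15, a change of -0.42 ± 0.10 (adjusted p 0.00244). Within slides 2, 4 and 8 the Fgb difference was -0.67, -0.92 and -0.35. For Fga it was -0.57, -0.68 and -0.08, and for Fgg -0.57, -0.72 and -0.25. The direction held on each slide, with the smallest difference on slide 8 for every chain. In females the 3 chains had -0.27, -0.11 and -0.20 for Fgb, Fga and Fgg, with adjusted p of 0.172, 0.550 and 0.245.

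Itih4, an inter-alpha-trypsin inhibitor heavy chain family member, had slide-adjusted ratios of 7.50, 7.51, 7.54, 7.62 and 7.68 in males at 2 mg/kg against 7.88, 7.92, 7.96, 8.16 and 8.23 in controls. The groups did not overlap and the change was -0.46 ± 0.10 (adjusted p 0.00136 in limma), with -0.60, -0.65 and -0.24 within slides 2, 4 and 8. In females it was -0.15 ± 0.11 (adjusted p 0.400).

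Hp had slide-adjusted ratios of 7.11, 7.23, 7.41, 7.49 and 7.50 in males at 2 mg/kg against 7.48, 7.82, 7.84, 7.87 and 8.02 in controls. The groups overlapped through 1 control male, animal 6 on slide 8, where the within-slide difference was 0.01. On slides 2 and 4 it was -0.80 and -0.77, and the fitted change was -0.46 ± 0.12 (adjusted p 0.00534 in limma). In females it was -0.11 ± 0.13 (adjusted p 0.628).

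Cp had the largest negative change of the 10 and the least even one. Slide-adjusted ratios were 6.61, 7.11, 7.62, 7.62 and 7.85 in males at 2 mg/kg and 7.67, 7.75, 7.86, 8.16 and 8.17 in controls. Of the treated males 4 of 5 were below every control, and animal 86 was not. The change was -0.56 ± 0.16 (adjusted p 0.00985 in limma), just under 1.5-fold, and within slides it was 0.19 on slide 2, -1.05 on slide 4 and -1.57 on slide 8. Without animal 87, which has the 6.61, it was -0.32 with an adjusted p of 0.101. The other Cp probe gave -0.43 ± 0.19 (adjusted p 0.0887). In females the pair of probes gave -0.26 and 0.04, with opposite signs. In males Cp changed by 0.09, 0.22 and -0.08 at 0.03, 0.12 and 0.5 mg/kg, and its other probe by 0.18, 0.48 and -0.04, none of them called. Such a course was not particular to Cp. Lbp had 0.28, 0.12 and 0.01 and Crp 0.08, 0.05 and -0.13 in the same order.

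Crp, the pentraxin C-reactive protein, ran from 4.62 to 5.13 in males at 2 mg/kg and from 5.23 to 5.43 in controls, slide-adjusted, with no overlap and a change of -0.41 ± 0.13 (adjusted p 0.0195 in limma). Orm1, the plasma carrier protein alpha-1-acid glycoprotein, ran from 5.66 to 5.76 against 5.79 to 6.21, a change of -0.31 ± 0.10 (adjusted p 0.0234). Lbp, which hands bacterial lipopolysaccharide to its receptor, ran from 1.13 to 1.75 against 1.40 to 1.95 and was the 1 gene of the 9 that missed the adjusted p, with -0.27 ± 0.13 (adjusted p 0.117). Orm1 and A2m, both strong responders in rats, thus had log2 ratio changes of opposite sign in the same livers. The contrast depended on the scaling: with the liver channel alone Orm1 turned to 0.35 in males, the sign of A2m. In females the changes of Crp, Orm1 and Lbp were -0.08, -0.21 and -0.03, with 95% intervals of -0.36 to 0.19, -0.42 to 0.01 and -0.30 to 0.24.

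**Figure D4:**
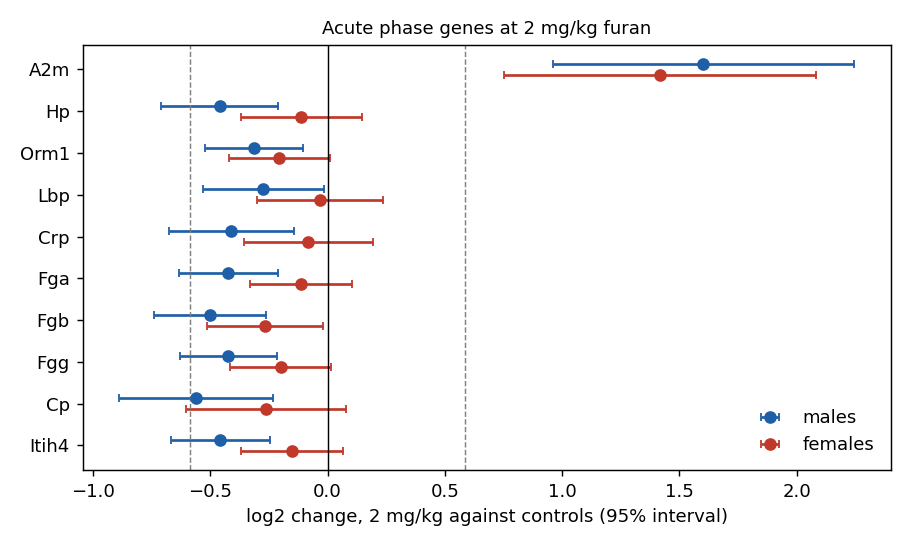
Log2 change at 2 mg/kg against controls of the same sex (horizontal axis) with its 95% interval for each of the 10 genes, males in blue and females in red. Dashed lines mark 1.5-fold. The A2m intervals, 0.96 to 2.24 in males and 0.75 to 2.08 in females, lie above the upper line, and no other point reaches the lower one.

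In females as a whole the 9 genes other than A2m ran from -0.27 to -0.03 at 2 mg/kg with a median of -0.15, where all tested probes had a median of 0.0049, and none passed the adjusted p, by which 2.68% of all probes were lower. An unadjusted p under 0.05 was reached by A2m and Fgb, 2 of the 10, where 24.2% of all probes reached it. Tested over all 4 doses with limma's moderated F test, 9 of the 10 genes had an effect at some dose in males (adjusted p 0.000128 for A2m, 0.00412 to 0.0382 for 8 others, 0.166 for Orm1), where 18.8% of all probes did. That count was 2 without male 84 at 2 mg/kg and 5 without control male 2 or control male 5. In females 0 of 10 did, where 3.1% of all probes did, and A2m had an adjusted p of 0.0576. With no slide block, A2m was the 1 gene of 10 with an effect at some dose in males.

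Among arrays of the same group, once group and slide were removed, the fibrinogen chains moved together over 48 arrays: Pearson's r was 0.94 for Fga with Fgg, 0.80 for Fga with Fgb and 0.81 for Fgb with Fgg (Spearman's rho 0.94, 0.80 and 0.78), each with a permutation p of 1e-05, the smallest that 100000 permutations can give. Adjusted over the 45 pairs of members, these p were 3.46e-05 for r and 4.09e-05 for rho. Without the 2 arrays farthest from the median of the first gene, r was 0.92, 0.73 and 0.74. Itih4 followed them, with r of 0.84, 0.71 and 0.81 with Fga, Fgb and Fgg, and Orm1 had 0.78, 0.62 and 0.79. Hp followed them too, with r of 0.69, 0.72 and 0.70 in the same order. The median absolute r with all tested probes was 0.19 for Fga, 0.18 for Fgb and 0.17 for Fgg. Lbp and Cp did not follow the set, with r of -0.06 to 0.19 and 0.06 to 0.18 with the chains and 0.02 and 0.17 with Itih4. Neither did A2m, with r from -0.26 to 0.13 with the 8 genes other than Cp and -0.39 with Cp (permutation p 0.00629, adjusted 0.0157, rho -0.30 with an adjusted p of 0.0792, r of -0.27 without the 2 farthest arrays).

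The probes whose levels were most like A2m, once slide and the mean of each sex were removed, lay outside the acute phase lists. They were Abcb1b, a drug efflux transporter, with a pair of probes at r of 0.85 and 0.82, Gstp1, the pi class glutathione transferase, at 0.84, Sri, the calcium-binding protein sorcin, at 0.82 and Atp6v1d, a subunit of the vacuolar proton pump, at 0.82, over 48 arrays. These r share the dose groups and are a description. At 2 mg/kg the Abcb1b probe with the higher r rose by 2.64 ± 0.40 (males) and 2.69 ± 0.41 (females), and Gstp1 by 2.69 ± 0.30 and 1.10 ± 0.32, and all of these were called.

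Other genes of the acute phase response were read from lists chosen by function. For the counts called in these lists, the share called over all tested probes at 2 mg/kg was 5.22% in males and 1.45% in females. In males at 0.12 and 0.5 mg/kg it was 0.315% and 0.368%. Of 24 other positive acute phase proteins tested at 2 mg/kg in males, 3 were called higher, 5 lower and 16 not, with a median of -0.44. The higher ones were the metal-binding metallothioneins Mt2A at 3.13 ± 0.63 and Mt1 at 2.28 ± 0.45, and the ferritin light chain Ftl1 at 0.89 ± 0.19. The largest called falls were Fgl1, a liver-secreted fibrinogen-like protein, at -1.28 ± 0.15 and Mbl2, the mannose-binding lectin, at -0.89 ± 0.16. Of 15 negative acute phase proteins, 1 was called, the growth factor Igf1 at -0.68 ± 0.13, with a median of -0.43. The positive and the negative proteins thus had near-equal medians in males, -0.44 and -0.43, beside -0.42 for the 10 genes. In females none of the 24 or the 15 was called, and the medians were -0.25 and -0.13.

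Of 8 cytokine and receptor genes tested, Il6r, the interleukin 6 receptor, was called higher in males at 2 mg/kg, at 0.77 ± 0.24, and also at 0.12 mg/kg (1.30 ± 0.23) and 0.5 mg/kg (1.16 ± 0.24). Il1b, the inflammatory cytokine interleukin 1 beta, was called lower in both sexes at 2 mg/kg, at -0.71 ± 0.21 in males and -0.91 ± 0.22 in females, and Il1a in females at -0.74 ± 0.15. Il6 itself was not well above background on enough arrays to be tested. Of 13 signalling and transcription genes, 1 was called, Nfkbia, the NF-kappaB inhibitor, lower in males at -0.65 ± 0.19. Stat3 had 0.45 ± 0.12 in males (adjusted p 0.00440), under 1.5-fold, and 0.09 in females (adjusted p 0.690). Socs3, a feedback inhibitor of that pathway, had -0.16 and -0.14 in males and females (adjusted p 0.324 and 0.509).

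Of 8 genes that respond to glucocorticoid, a hormone that acts with cytokines on this response, 2 were called higher in males at 2 mg/kg, Zbtb16 at 1.84 ± 0.34 and Fkbp5 at 1.28 ± 0.28. Another 4 were called lower, the largest being Dusp1, a MAP kinase phosphatase, at -1.40 ± 0.27 and the kinase Sgk1 at -1.37 ± 0.24. Zbtb16 and Fkbp5 were called higher in males at 0.12 and 0.5 mg/kg too, and 1 gene of the list was called lower at each, Sgk1 at -1.61 ± 0.23 and Dusp1 at -1.37 ± 0.28. No member was called at these doses, where 0.315% and 0.368% of all tested probes were called in males. In females at 2 mg/kg Zbtb16 was called, at 1.66 ± 0.35, and the list's median was 0.02. The Kupffer cell and macrophage list had 0 of 10 genes called in either sex, with medians of -0.28 in males and -0.19 in females, and array means of 2.27 to 3.05 in males at 2 mg/kg against 2.58 to 3.22 in controls. Neutrophil markers were tested for 2 of 6 genes, S100a8 and S100a9, with 0 called.

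**Figure D5:**
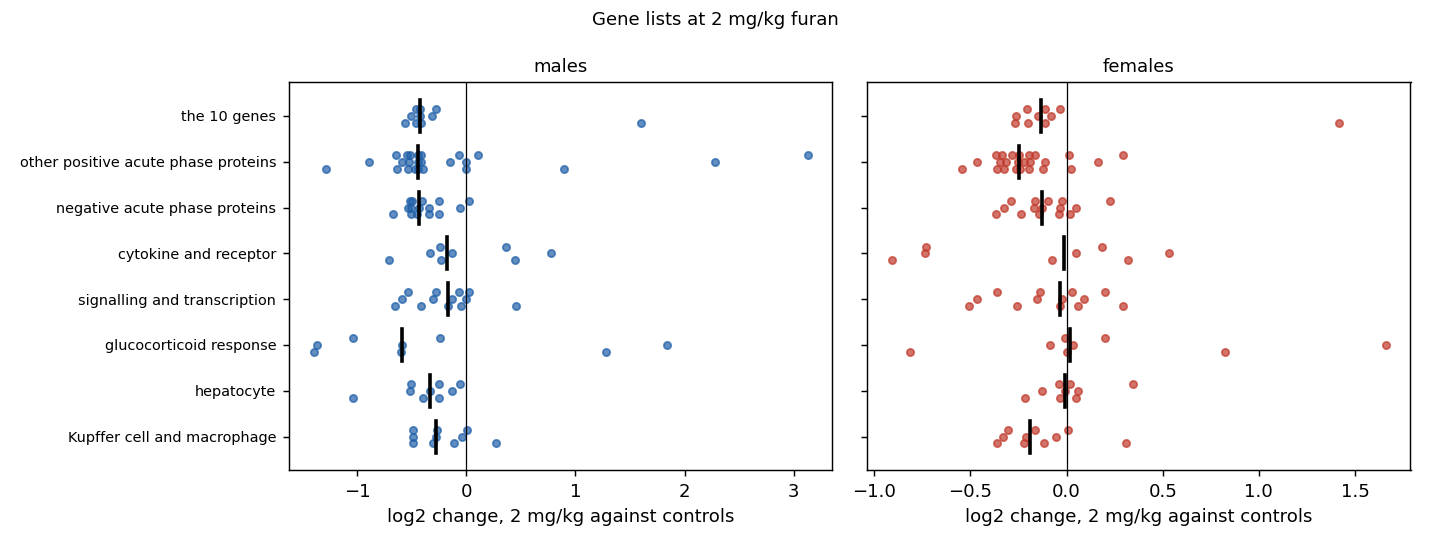
Log2 change at 2 mg/kg against controls (horizontal axis) for each tested gene of the 10 members and of 7 lists, males on the left and females on the right, with the list's median as a black bar. In males the members, the other positive and the negative acute phase proteins have medians of -0.42, -0.44 and -0.43, and the A2m point lies far to the right of the other 9.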

How the data were processed

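Each array measured liver RNA (Cy5) of 1 rat against universal rat reference RNA (Cy3). The deposited scanner files, read by the authors with Agilent Feature Extraction 10.7.3.1, hold median pixel intensity per spot and local background, 0 or 1 marks of saturation and of signal above background, and a log10 ratio of both channels that the software background subtracted and dye normalised. In the deposited series matrix the values are a log2 ratio that the authors normalised. Of its 49 columns, 46 matched an array of their own group by rank correlation of at least 0.9. Of these 7 matched their own array, and the others that of another animal. The 3 that matched none were 1 each of females at 0.5 mg/kg, males at 2 mg/kg and males at 0.03 mg/kg. The matrix was thus used as an alternative without those 3 and without slide. Animal numbers in this text follow the sample labels, and which rat of a group gave which array remains in doubt.

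Intensities were corrected by normexp (offset 50) and loess in limma 3.58.1 under R 4.3.3 (the data.table package, 1.17.8, for reading). Spots marked as outliers were left out and spots of a probe averaged. A probe was tested when well above background in liver on at least 4 arrays of 1 group (17128 of 30367 probes). An array with under 10% of liver spots above background was left out, leaving 48. The limma model had 10 group means and slide as a block (31 residual degrees of freedom). Adjusted p values are by Benjamini-Hochberg over all tested probes, and all tests are 2-sided. RefSeq accessions named 18004 probes (59.3%). The labels give a number per rat, so p-values measure spread between rats of a group. The number of arrays per group limits the precision.

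Named from each list were up to 4 called genes with the largest change per comparison, and the 5 probes with a symbol most correlated with A2m. Genes discussed below the call limit (Stat3, Socs3) were named after their values were seen. The members, lists and alternatives were chosen with earlier results of these data known. The fit was tested on simulated data. Correlations used 100000 permutations of fit residuals, which are not fully independent. Figures were drawn with matplotlib.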

Additional observations from a re-analysis of the deposited data

Results flagged for a closer look

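Among the 10 genes and the 9 groups of 5 arrays, 90 sets of slide-adjusted log2 ratios were checked for a single array far from the other 4, and 3 were found, where chance gives about 1 in 20. Crp was 5.73 in female 68 at 0.5 mg/kg, with the other 4 from 5.21 to 5.31. Fga was 7.10 in control female 4, with the others from 6.80 to 6.85. Cp was 7.95 in male 44 at 0.12 mg/kg, with the others from 8.16 to 8.24. None of these arrays is a male control or a male at 2 mg/kg.

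None of the 10 genes differed between the sexes in its response to 2 mg/kg by the interaction test, but 4 genes of the other lists did. Over all tested probes 1.14% were called by it. The male minus the female log2 change was 3.25 for Mt2A (adjusted p 0.0437 in limma), 2.52 for Mt1 (0.0339), -0.82 for Fgl1 (0.0385) and -1.40 for Sgk1 (0.0259). In control rats, Mt1 and Mt2A were lower in males by 2.85 and 2.71.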

How the results depend on the processing

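A2m kept its direction in both sexes under all 14 alternatives, from 1.44 to 2.09 in males and from 1.21 to 2.02 in females, and its call except in females without slides 5 and 6 (0 of 10 genes called, 1.25 with an adjusted p of 0.0588). The count of members called in males at 2 mg/kg, 1 of 10, became 2 with slide as a random block, 5 with the scanner software's ratio and 2 without slides 5 and 6. Leaving out 1 array gave 1 to 2, the gene added being Cp without control male 2 or 3 or without male 81, 83 or 86. With median centring 2 members differed between control sexes. The count with an effect at any dose in males, 9, was 1 with no slide block, with no slide block and all 49 arrays, with the authors' values and with median centring, 2 with a random slide block and with all 49 arrays, 3 without slides 5 and 6 and 5 with the liver channel alone. Leaving out 1 array gave 2 to 9, with 2 without male 84 and 5 without control male 2 or 5. In females the count of 0 became 1 with a random slide block, with the scanner's ratio and with array weights, and 0 to 1 without 1 array (1 without female 11, 30 or 68). Changes that turned positive were, with the liver channel alone, Hp (0.061 in males, 0.058 in females), Orm1 (0.35, 0.27), Crp (0.13) and Itih4 (0.14) in females, and, all in females, Lbp (0.053), Crp (0.16) and Fga (0.063) with all 49 arrays and Lbp (0.016) with array weights. Leaving out 1 array gave -0.077 to 0.0069 for Lbp, positive without control female 2, and -0.15 to 0.0039 for Crp, positive without control female 9. The causes were not tested. Without 1 array, the adjusted p alone was passed by 6 to 8 of the 9 lower genes in males. Median centring put the median of all probes at 0.09 in males, with all 9 below it. With the animal number within a dose as a random replicate block, the A2m changes were 1.60 and 1.42 and no call changed. Same-numbered pairs correlated from -0.29 to 0.26 over 8 pairs, which is too few to decide whether the numbers pair the rats. Over all probes, 894 calls in males became 1427 with the scanner's ratio, 480 with the mean per gene and 390 with no slide block and all 49 arrays, and 572 with the authors' values. The 249 in females ranged from 115 to 515. No liver spot was saturated, so leaving such spots out was not run, and the authors' values could not be fitted with slide. The no slide block and all 49 arrays together, the authors' values without slide and the fit without slides 5 and 6 were chosen after seeing the data.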
